A study of Homo sapiens with 4 samples.

Results

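The shared ovarian peaks are the H3K27ac peaks found in both ovarian cancer lines of the study, OVCAR-3 and SKOV-3, and absent from the lists of the colon cancer line COLO-205 and the prostate cancer line DU-145. They were chosen by peak calls: an OVCAR-3 peak that overlaps a SKOV-3 peak by at least 1 base and no COLO-205 or DU-145 peak. The rule picked 818 of the 76093 OVCAR-3 peaks (1.08%), out of 251138 peaks in the 4 lists. The study sequenced H3K27ac chromatin immunoprecipitation (ChIP) libraries of these established lines to mark regulatory regions in which non-coding mutations could act. There was 1 library per line and no replicate, so no difference between lines could be tested, and all intervals cover counting error only. The lines differed in medium, with RPMI for COLO-205 and OVCAR-3, Eagle minimal essential medium for DU-145 and McCoy's 5a for SKOV-3, and the medium cannot be told apart from the line. Both ovarian lines came from 1 laboratory of gynecological oncology, and COLO-205 and DU-145 each from another laboratory. The source laboratory thus cannot be told apart from the ovarian origin.

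H3K27ac is the acetylation of lysine 27 of histone H3. It is deposited by the CBP and p300 acetyltransferases on nucleosomes flanking active promoters and enhancers. Promoter acetylation is largely shared between cell types, whereas distal enhancers differ more and often lie near genes that set cell identity. In the female genital tract, the oviduct and uterus derive from the Mullerian duct, and factors of this lineage, such as SOX17, PAX8 and MECOM, are known from ovarian carcinoma.

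The sequences around the OVCAR-3 summits of 6 shared ovarian peaks are shown because these are among the strongest peaks in both lines, or the strongest at a gene of the Mullerian list. Each is 200 bases of GRCh37 (the same assembly as hg19), on the plus strand. Capitals mark any match, on either strand, to 9 motifs: AP-1 (TGANTCA), TEAD factors (GGAATG), forkhead factors (TGTTTAC), ETS factors (CCGGAAG), SOX factors (ACAANGG), RUNX factors (TGTGGTT), the factors of the GATA family (AGATAAG), the ZEB E-box (CAGGTG) and TFAP2 (GCCNNNGGC).
CELSR2, chr1:109796631-109796830: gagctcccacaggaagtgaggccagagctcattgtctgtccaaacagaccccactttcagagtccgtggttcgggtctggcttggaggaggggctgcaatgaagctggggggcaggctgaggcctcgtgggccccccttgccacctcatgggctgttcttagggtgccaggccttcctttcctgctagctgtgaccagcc
KAZN, chr1:15303593-15303792: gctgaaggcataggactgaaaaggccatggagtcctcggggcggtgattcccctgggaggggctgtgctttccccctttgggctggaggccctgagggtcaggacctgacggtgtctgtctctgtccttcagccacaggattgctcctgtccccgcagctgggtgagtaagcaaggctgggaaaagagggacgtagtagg
TPD52L1, chr6:125445341-125445540: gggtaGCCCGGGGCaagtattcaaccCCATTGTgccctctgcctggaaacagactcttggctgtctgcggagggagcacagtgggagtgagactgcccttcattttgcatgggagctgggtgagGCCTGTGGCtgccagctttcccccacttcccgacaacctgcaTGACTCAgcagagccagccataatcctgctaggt
MEIS1, chr2:66672505-66672704: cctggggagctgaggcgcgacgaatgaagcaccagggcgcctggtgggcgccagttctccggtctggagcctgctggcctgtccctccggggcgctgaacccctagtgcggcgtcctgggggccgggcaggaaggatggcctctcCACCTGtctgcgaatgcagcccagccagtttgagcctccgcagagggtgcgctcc
MECOM, chr3:169386237-169386436: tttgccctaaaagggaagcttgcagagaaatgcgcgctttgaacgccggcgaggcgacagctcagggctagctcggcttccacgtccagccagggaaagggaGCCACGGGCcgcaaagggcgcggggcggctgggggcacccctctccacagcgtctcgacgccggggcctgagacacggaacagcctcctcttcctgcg
ESR1, chr6:152222122-152222321: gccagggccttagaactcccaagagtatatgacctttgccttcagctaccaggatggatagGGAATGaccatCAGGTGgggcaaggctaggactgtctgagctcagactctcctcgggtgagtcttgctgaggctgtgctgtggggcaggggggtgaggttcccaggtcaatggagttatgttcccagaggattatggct
The CELSR2 and KAZN windows held none of these letters. The TPD52L1 window held 1 AP-1 match, 1 SOX match and 2 TFAP2 matches, and the ESR1 window held 1 TEAD match and 1 ZEB E-box. The MEIS1 window had 1 ZEB E-box and the MECOM window 1 TFAP2 match.

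The libraries were of unequal reach. SKOV-3 had 14001 peaks, while the other lists held between 75468 (DU-145) and 85576 (COLO-205), and the ChIP tags recovered from the peak values numbered between 2.24e+07 in SKOV-3 and 3.6e+07 in DU-145. Peaks just past the caller's threshold had a median of 0.982 at the summit in SKOV-3, in tags per 1e+06 tags of the library, but between 0.585 and 0.637 in the other lines. The SKOV-3 value rests on 20 peaks and the others on 133 to 319 each, and SKOV-3 peaks that overlap a shared ovarian peak were listed at levels down to 0.491. As a check of the labels, 15 of 20 genes of a Mullerian and ovarian carcinoma list had a peak within 1 kb of a start in OVCAR-3, against 8 in SKOV-3, 11 in COLO-205 and 11 in DU-145. Of 20 colon epithelium genes, 12 had one in COLO-205 and at most 2 in any other line, and of 18 prostate luminal genes 10 had one in DU-145, 2 in SKOV-3, 7 in OVCAR-3 and 8 in COLO-205. The lists differ in how many genes they mark at all. Of all protein-coding genes, 59.4% had such a peak in OVCAR-3, 31.0% in SKOV-3, 48.8% in COLO-205 and 58.6% in DU-145, beside which the Mullerian shares were 75%, 40%, 55% and 55%. The prostate list does not mark out DU-145, whose share of it, 55.6%, was below that of all genes. Of 26 epithelial genes, OVCAR-3 marked 25 (96.2%) while SKOV-3 marked 8 (30.8%), close to its share of all genes.

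Most OVCAR-3 peaks had no counterpart at all: 45111 (59.3%) overlapped no peak of another line. A further 13010 were found in DU-145 only and 5323 in COLO-205 only, compared with the 818 in SKOV-3 only. The 818 peaks overlapped 855 distinct SKOV-3 peaks, with more than 1 in 32 cases. Each was given as its partner the SKOV-3 peak of largest overlap, which gave 812 distinct partners. Counted from the SKOV-3 side, 960 peaks overlapped an OVCAR-3 peak and neither of the other lists.

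The acetylation at the shared ovarian peaks was moderate. Their fold enrichment, the ratio of tags at the summit to the local background, had a median of 6.10 in OVCAR-3 (lowest 2.26, highest 37.2), and the SKOV-3 partners had a median of 5.79 (lowest 2.47, highest 22.8). For comparison, the median over all OVCAR-3 peaks was 5.37, and that of the 5178 OVCAR-3 peaks found in all 4 lines was 9.43. These folds are set within each library and are not scaled between libraries. Ranked by −log10 q within its own list, the median shared peak stood at percentile 66.7 in OVCAR-3 and its partner at percentile 39.5 in SKOV-3, and 65 peaks were at or above percentile 75 of both lists. In tags per 1e+06 tags at the summit, the medians were 1.05 in OVCAR-3 and 0.982 in SKOV-3, and their median ratio was 1.03.

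The rule requires an overlap, so the closeness of the calls follows in part from it. The median distance between both summits was 47 bp, and the median overlap was 227 bp, or 64.7% of the OVCAR-3 peak. OVCAR-3 peaks were wider, with a median of 387 bp against 256.5 bp for the partners.

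**Figure D1:**
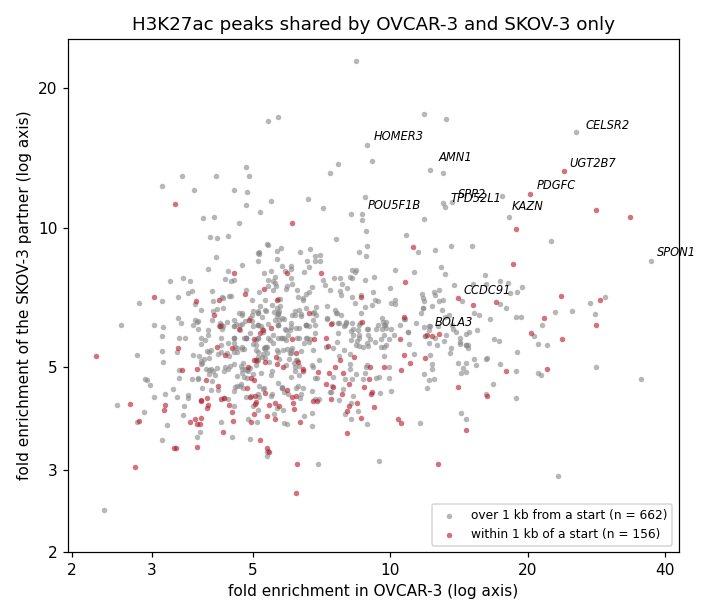
Fold enrichment of each of the 818 shared ovarian peaks in OVCAR-3 (x axis, log scale) and of its SKOV-3 partner (y axis, log scale). Each point is 1 peak, red where it lies within 1 kb of a protein-coding start. The peak in CELSR2 is high in both lines, at 25.5 and 16.0, whereas the peak near SPON1 is highest in OVCAR-3, at 37.2, with 8.49 in SKOV-3.

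At the border of the rule, the 3 smallest overlaps with SKOV-3 were 13 bp near CWH43, 16 bp near GADD45G and 23 bp near MGMT. The 3 smallest gaps to a COLO-205 or DU-145 peak were 7 bp near SORCS2, 8 bp near P3H2 and 16 bp near RUSC2. Just outside, peaks near PREX1, PI4KA and CALHM3 were left out for overlaps of 21, 22 and 23 bp with one of these lists. Most of the shared ovarian peaks were further off: 84 had a COLO-205 or DU-145 peak within 350 bp and 179 within 1 kb, whereas 326 (39.9%) were over 10 kb and 137 (16.7%) over 50 kb from the nearest peak of both lines.

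The shared ovarian peaks were mainly distal. Only 156 of them (19.1%, 95% exact interval 16.4 to 21.9) lay within 1 kb of the start of a protein-coding gene, against 23.5% of all OVCAR-3 peaks. The share was 8.31% among the OVCAR-3 peaks found in no other list, 14.7% among those also in COLO-205 only and 36.5% among those also in DU-145 only. Among the other peaks shared with SKOV-3, it was 37.6% with COLO-205 and 55.3% with DU-145 as the third line. It was 87.0% among the peaks of all 4 lines. The median distance to a start was 18315 bp, and 500 peaks were over 10 kb away. By place, 381 summits fell in an intron and 100 in an exon of a protein-coding gene, 79 in a long non-coding RNA (lncRNA) gene and 258 in neither. The promoter share depends on the threshold: with a −log10 q of at least 10 in every list it was 39.1% of 507 peaks, and with the 14001 strongest peaks of each list it was 60.0% of 1073 peaks. The share of all OVCAR-3 peaks at these settings was not computed, so the 23.5% is no base for these values.

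**Figure D2:**
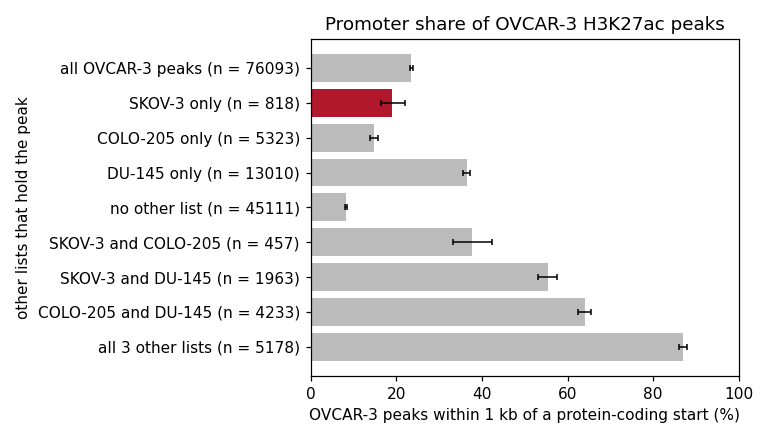
Percent of OVCAR-3 peaks within 1 kb of a protein-coding start (x axis), by which other lists hold the peak (y axis). Bars are shares of the stated number of peaks, with exact 95% intervals for counting error. The shared ovarian peaks, in red, stand at 19.1%, between the 8.31% of peaks found in OVCAR-3 alone and the 87.0% of peaks found in all 4 lines.

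The strongest peaks, ranked by the lower of the percentiles in the ovarian lines, were of both kinds. The first was in an intron of CELSR2, which encodes a seven-pass cadherin of planar cell polarity, at chr1:109795563-109798727. Its fold was 25.5 in OVCAR-3 (6.08 tags per 1e+06) and 16.0 in SKOV-3 (3.93 tags per 1e+06). CELSR2 was nearest to 5 shared ovarian peaks, 2 of them at its promoters, and to no COLO-205 or DU-145 peak. Promoter peaks of this rank were found at CCDC91, a Golgi transport adaptor, at PDGFC, a ligand of the PDGF receptors, and at UGT2B7, a glucuronosyltransferase of steroids and drugs. At CCDC91 the fold was 14.0 in OVCAR-3 and 7.05 in SKOV-3. At PDGFC it was 20.2 and 11.8, and 1 COLO-205 peak was nearest to this gene. The nearest DU-145 peak was 4433984 bp away, on chromosome 4, where DU-145 had only 20 peaks between 150 and 190 Mb. At UGT2B7 the fold was 23.96 and 13.2. The first of all, CELSR2, was at percentile 99.7 in its weaker line.

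The distal peaks of this rank included an intronic peak of KAZN, which encodes the desmosome-associated protein kazrin, with 17.6 in OVCAR-3 and 11.7 in SKOV-3. A peak in the lncRNA genes CASC8 and PCAT1, nearest to POU5F1B, a retrogene of POU5F1, had 8.66 and 10.7. Another peak, in an intron of TPD52L1, of the tumor protein D52 family, had 13.1 and 11.1. Peaks upstream of AMN1, named after a yeast regulator of mitotic exit, had 12.2 and 13.3 at chr12:31886350-31886898 and 11.8 and 10.5 at chr12:31900145-31900564. The peak nearest to SPP2, which encodes a secreted phosphoprotein of bone, lay 190630 bp from the start and had 13.7 and 11.4. The peak nearest to BOLA3, a factor of mitochondrial iron-sulfur clusters, had 12.1 and 6.002. The 12 peaks of highest rank all stood at percentile 87.9 or above in both lists.

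Genes of the Mullerian list were next to 14 shared ovarian peaks, at 5 of its 20 genes (25%), whereas 557 of all 19807 protein-coding genes (2.81%) were nearest to at least 1. The list was composed with results of these data known, so this count is a description. It also depends on the rule: the peaks numbered 8 at 3 genes where 50% of the OVCAR-3 peak had to be covered, 7 at 4 genes with a −log10 q of at least 10 in every list, 9 at 5 genes with equal lists, and 7 at 4 genes without chromosomes 3 and 19. MEIS1, a TALE homeobox factor and HOX cofactor, carried 3 such peaks at its promoter and first kilobases. Their folds in OVCAR-3 were 23.6, 15.2 and 21.4, with 7.11, 6.80 and 4.81 in their SKOV-3 partners. The last of the 3 also held SKOV-3 peaks of 5.40 and 7.66, and it was the only shared ovarian peak whose highest SKOV-3 fold was over 1.5 times that of its partner. Within 60 kb of the MEIS1 start there were 9 OVCAR-3 and 6 SKOV-3 peaks, 1 DU-145 peak and no COLO-205 peak. SOX17, a transcription factor of endoderm and Mullerian epithelium, had a promoter peak with 17.0 in OVCAR-3 and 6.93 in SKOV-3, and a second peak, 8289 bp from the start, with 18.9 and 7.27. At both genes a promoter peak was listed in the ovarian lines alone, but SOX17 was also nearest to 12 DU-145 peaks and 1 COLO-205 peak, against 41 of OVCAR-3 and 4 of SKOV-3.

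MECOM, a zinc finger factor amplified in ovarian carcinoma, differed: its promoter was marked in all 4 lines and the shared ovarian peaks were distal. The 7 peaks lay between 4418 and 215170 bp from a start. The 2 at 160658 and 163048 bp were among the highest SKOV-3 partners, with folds of 17.0 and 17.4, against 5.40 and 5.68 in OVCAR-3. The single peak of ESR1, the estrogen receptor, was intronic, 20023 bp from a start, with 8.23 in OVCAR-3 and 6.24 in SKOV-3, and COLO-205 and DU-145 had no peak nearest to this gene. The peak of LHX1, a LIM homeobox factor required for the Mullerian duct, was weak at 5.58 and 3.88, and DU-145 and COLO-205 had peaks 399 and 595 bp away. PAX8 had promoter peaks in all 4 lines and none of the shared ovarian peaks. Other Mullerian genes, among them WT1, EMX2, MUC16 and FOLR1, were marked at the promoter in OVCAR-3 but not in SKOV-3. Of these, WT1 and EMX2 were also marked at the promoter in COLO-205, and MUC16 and FOLR1 in DU-145.

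Several genes drew many shared ovarian peaks. KAZN was nearest to 18, SMAD7, AMN1 and FGD4 to 11 each, TSPAN14 to 9 and ALDH1A2 to 8. SPON1, CHST2, FTH1 and MECOM had 7 each, and SPP2 and SORCS2 had 6. The OVCAR-3 list was of unequal density at these genes: KAZN was nearest to 243 OVCAR-3 peaks and SMAD7 to 186, but AMN1 to 15 only, of which 11 were shared ovarian peaks. The nearest start is a label of position, since no contact or expression was measured.

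**Figure D3:**
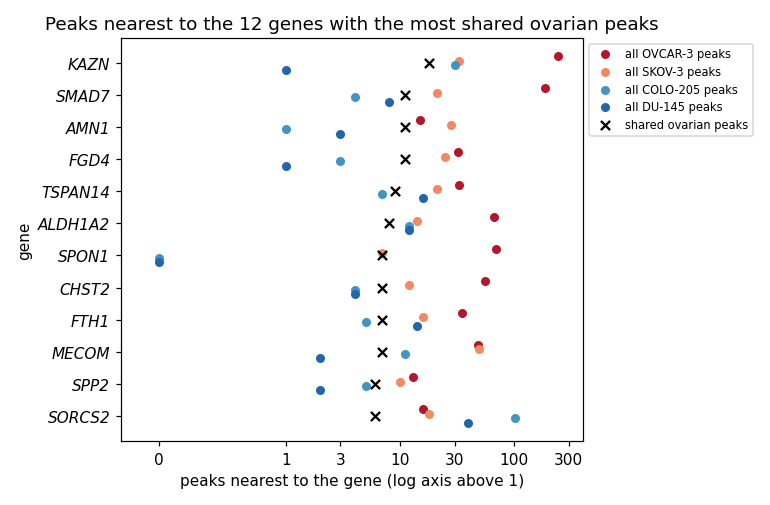
Number of peaks of each line (colored points) nearest to the 12 genes with the most shared ovarian peaks (crosses), on an axis that is linear up to 1 and logarithmic above. At SPON1 the COLO-205 and DU-145 lists have 0 peaks and OVCAR-3 69, whereas at SORCS2 COLO-205 has 101 and OVCAR-3 16.

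At KAZN, all 18 peaks were intronic, with folds from 4.97 to 29.6 in OVCAR-3 and from 4.52 to 11.7 in SKOV-3. The highest, at chr1:15353538-15358468, was 4931 bp wide, the widest of all shared ovarian peaks. ALDH1A2, which makes retinoic acid from retinal, was among the clearest of these genes. Its 8 shared ovarian peaks had folds between 8.69 and 16.2 in OVCAR-3 and between 4.72 and 7.90 in SKOV-3, so all were above the OVCAR-3 median. They reached from its promoters to introns of the neighboring LIPC gene, up to 54502 bp from a start. COLO-205 and DU-145 had 12 peaks each nearest to ALDH1A2, yet none at its promoters.

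The SMAD7 peaks were spread over both sides of this inhibitor of TGF-beta signaling. Of the 11, 2 lay in introns of SMAD7, at 4758 and 6070 bp, and 6 lay over 100 kb away, in introns of the neighboring CTIF gene. Folds ranged from 3.94 to 23.3 in OVCAR-3 and from 2.91 to 6.48 in SKOV-3. The SMAD7 promoter was marked in all 4 lines. Of the 37 genes of the TGF-beta and BMP list, 2 others had a shared ovarian peak (8.11% with SMAD7, against 2.81% of all genes): SMAD6, a second inhibitory SMAD, with 7.71 and 4.25, and ID4, an inhibitor of basic helix-loop-helix factors. The ID4 promoter peak had 18.6 in OVCAR-3 and 8.37 in SKOV-3, and neither COLO-205 nor DU-145 had a peak within 60 kb of the start.

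The 7 peaks of SPON1, which encodes the matrix protein spondin, all lay upstream, at distances from 22052 to 102681 bp. The one at chr11:13944071-13945325, in a lncRNA gene, had the highest OVCAR-3 fold of all shared ovarian peaks, 37.2, and 8.49 in SKOV-3. SPON1 was nearest to 69 OVCAR-3 and 7 SKOV-3 peaks and to none of the other lines. At CHST2, a sulfotransferase of carbohydrates, folds were from 4.83 to 13.9 in OVCAR-3 and from 5.94 to 8.85 in SKOV-3. At TSPAN14, a tetraspanin that partners the protease ADAM10, the OVCAR-3 folds stayed low, between 3.49 and 6.21, and those of SKOV-3 were between 4.92 and 7.72.

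**Figure D4:**
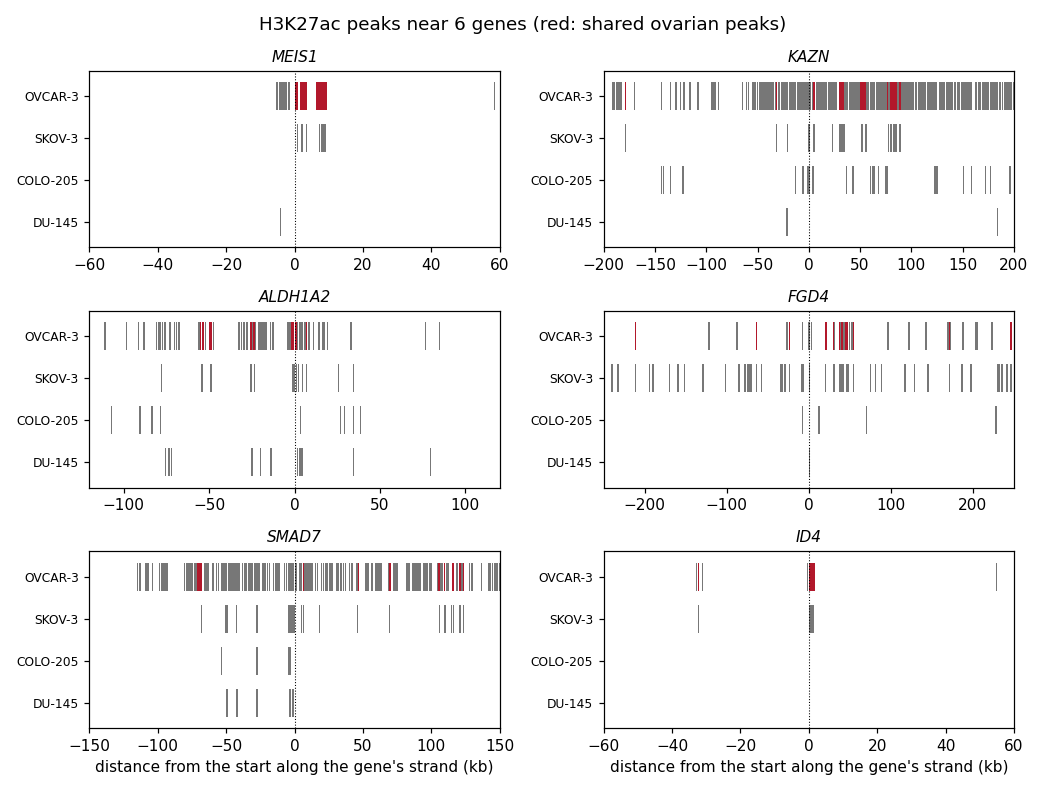
Peaks of each line by distance from the start (kb, along the gene's strand, dotted line at 0) near 6 genes, with shared ovarian peaks in red and other peaks in gray. The narrowest bars are widened for sight. MEIS1 and ID4 are nearly bare in COLO-205 and DU-145, whereas OVCAR-3 peaks fill the KAZN and SMAD7 regions, with 245 and 179 peaks in the windows drawn.

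The 818 peaks formed 648 loci when those less than 10 kb apart were joined, 549 of them with 1 peak and 9 with at least 5. The densest, chr12:31882200-31910722 upstream of AMN1, held 11 of them within 28523 bp, with no COLO-205 and 2 DU-145 peaks. Folds there ran from 3.69 to 22.5 in OVCAR-3 and from 5.20 to 13.3 in SKOV-3. Next came chr11:61801981-61828600 between FTH1, the ferritin heavy chain, and INCENP, a chromosomal passenger protein, with 9, at folds of up to 15.1 and 9.11. The third, chr12:32572441-32606514 within FGD4, an exchange factor of CDC42, also held 9 and had no peak of COLO-205 or DU-145. Its folds ran from 3.43 to 13.2 in OVCAR-3 and from 3.28 to 9.03 in SKOV-3. Loci at TSPAN14 (chr10:82247528-82264154) and in CTIF near SMAD7 (chr18:46351074-46370063) followed with 7 and 6. All 6 peaks of SORCS2, a sortilin-family receptor, lay within 10102 bp of an intron, with folds from 3.71 to 6.84 in OVCAR-3 and from 7.32 to 12.1 in SKOV-3, and COLO-205 had 101 peaks nearest to the same gene. Neighboring peaks may share a domain, which was not measured, and are not taken as independent.

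Of 40 collagen, laminin and integrin genes, 7 (17.5%) were nearest to 11 shared ovarian peaks, against 2.81% of all protein-coding genes. Among them, a peak 650096 bp from COL12A1, a fibril-associated collagen, had 13.1 in OVCAR-3 and 11.3 in the other ovarian line, and a peak near COL18A1, a basement membrane collagen, had 14.7 and 5.58. Both COL12A1 peaks lay at least 650096 bp from its start, and the counts of nearest genes have no distance limit. Of 41 GATA, SOX and forkhead genes, 7 (17.1%) were nearest to 8: besides SOX17, these were GATA5, SOX5, FOXD1, FOXO1, FOXP1 and FOXQ1, with an intronic peak of FOXP1, a forkhead repressor, at 12.4 in OVCAR-3 and 5.07 in SKOV-3. For the WNT pathway it was 5 of 45 genes (11.1%). The ligand WNT10A (9.19 and 4.11), the receptor FZD8 (7.81 and 4.38) and the antagonist DKK3 (4.30 and 3.62) had them at the promoter, and the ligands WNT7A and WNT7B at a distance.

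Of 40 receptor tyrosine kinase and ligand genes, ERBB4 and PDGFC were marked at the promoter and EPHB2 in an intron, which makes 7.5% against 2.81% of all genes. ERBB4, a neuregulin receptor, had 22.0 in OVCAR-3 and 4.96 in SKOV-3. Of 23 YAP and TEAD genes, 3 (13%) had peaks: WWTR1, which encodes TAZ, with 4.38 and 6.26, AMOTL2, with 35.4 and 4.73, and F3, tissue factor, with 3 distal peaks. The AMOTL2 peak was one of the highest in OVCAR-3, and it held a further SKOV-3 peak of 6.05. F3 had folds of 4.83, 8.19 and 6.55 in OVCAR-3 with 11.2, 10.7 and 8.48 in SKOV-3.

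Of 25 immediate early genes, 3 were nearest to a shared ovarian peak. The peak near DUSP1, a phosphatase of MAP kinases, had a fold of 5.46 in OVCAR-3 and 11.4 in SKOV-3. That near JUNB, an AP-1 subunit, had 3.04 and 6.17, and the peak nearest to MYC, 132094 bp away in the lncRNA gene PVT1, had 5.63 and 4.08. Of 25 inflammatory genes, the cytokine genes LIF, IL1B and CSF1 were found, all with distal peaks. LIF had 2, with 8.64 and 10.02 in OVCAR-3 and 7.17 and 6.88 in SKOV-3. IL1B had 4.91 and 6.39, and CSF1 had 9.94 and 5.76. Of 39 HOX genes, HOXB2 had a promoter peak with 6.07 and 10.2, 379 bp from a DU-145 peak, and HOXB3 a peak with 7.57 and 5.001, 360 bp from a COLO-205 peak. Of 29 mesenchymal genes, FN1, fibronectin, had 6.46 and 8.03 at 262984 bp, and SPARC, a matrix protein, had 7.71 and 6.23 at 12192 bp. These lists thus had between 5.13% and 12% of their genes nearest to a shared ovarian peak, against 2.81% of all genes. Each share rests on 2 or 3 genes, so nothing is read from it. Among all lists with such a gene, OVCAR-3 marked between 24.1% (mesenchymal) and 95.7% (YAP and TEAD) at the promoter, against 59.4% of all genes. The 2.81% takes no account of this. On chromosome 7, which holds the HOXA genes, SKOV-3 had only 65 peaks (0.464% of its list, against 2.17% to 3.43% in the other lines) and 2 of the shared ovarian peaks were found. Whether part of the SKOV-3 list is missing there was not tested, so an absence from chromosome 7, HOXA genes included, cannot be read as a lack of acetylation. None of the 26 epithelial, 20 colon, 18 prostate and 30 interferon genes, nor of 14 predicted master regulators of the lines, was nearest to a shared ovarian peak. At the 2.81% of all genes, lists of these sizes would hold about 1 such gene or none, so nothing is read from these counts.

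At the level of promoters, 5849 genes had a peak within 1 kb of a start in both ovarian lines, of which only 93 had none in COLO-205 and DU-145. They include SOX17, MEIS1, ID4, ALDH1A2, PDGFC, UGT2B7, CELSR2, ERBB4, FZD8, WNT10A and DKK3. By place, 24 of the 93 (25.8%) were on chromosome X, among them the glycolytic gene PGK1, and 14 (15.1%) on chromosome 4. Of the 5849 genes marked in both ovarian lines, 2.02% were on chromosome X and 4.51% on chromosome 4, and of all protein-coding genes 4.35% and 3.81%. PGK1 was singled out after the values were seen, as a gene active in most cells. Chromosome X held 0.306% of the COLO-205 list and 0.237% of the DU-145 list, against 1.45% in OVCAR-3 and 1.58% in SKOV-3. Ovarian and prostate lines also differ in donor sex, which cannot be told apart from the line. Of the 147 genes nearest to a promoter peak of the shared ovarian set, 61 did have a COLO-205 or DU-145 peak at a promoter, so that the shared ovarian peak was there a further peak at a gene with a marked start.

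The chromosomes contributed unequally. Chromosome 12 held 89 of the shared ovarian peaks (10.9%), but 4.47% of the OVCAR-3 list and 6.03% of the SKOV-3 list. Chromosome X held 4.40%, against 1.45% and 1.58%, and chromosome 4 held 7.21%, against 2.82% and 3.96%. Chromosome 17 held 2.08%, against 6.89% and 6.56%. Chromosome 3 held 6.72%, which lies below the 13.9% of the OVCAR-3 list but above the 4.53% of the SKOV-3 list.

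**Figure D5:**
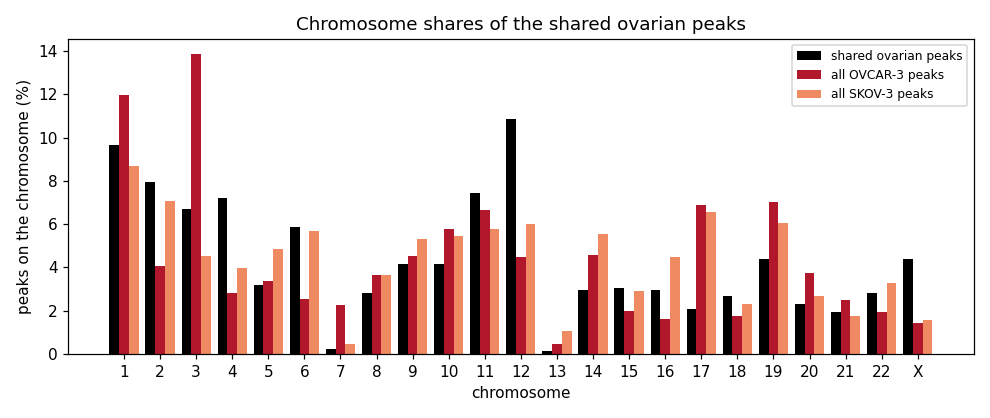
Percent of the shared ovarian peaks (black), of all OVCAR-3 peaks (dark red) and of all SKOV-3 peaks (orange) on each chromosome. Chromosomes 12, 4 and X are among those that hold larger shares of the shared ovarian peaks than of either list, and chromosome 17 is among those with a smaller one.

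Of 3 such places, chosen after the positions were seen, the stretch of chromosome 12 and chromosome X had few peaks in both COLO-205 and DU-145, and the stretch of chromosome 4 in DU-145 only. Between 30 and 34 Mb of chromosome 12, where AMN1 and FGD4 lie, there were 52 shared ovarian peaks (6.36%). This stretch held 259 SKOV-3 and 211 OVCAR-3 peaks, but 29 in COLO-205 and 20 in DU-145. Between 150 and 190 Mb of chromosome 4, there were 26 shared ovarian peaks, 12 of them at promoters, with 492 OVCAR-3, 101 SKOV-3 and 394 COLO-205 peaks, but 20 of DU-145. On chromosome X there were 36, 25 of them at promoters, with 1102 OVCAR-3 and 221 SKOV-3 peaks, against 262 in COLO-205 and 179 in DU-145. The median fold of the shared ovarian peaks was 5.25 in OVCAR-3 and 6.52 in SKOV-3 in the chromosome 12 stretch, and 7.54 and 5.11 on chromosome X.

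Peaks of each list were also counted around every site. Within 1 Mb on either side of a shared ovarian peak, the median number of peaks was 38 in COLO-205 and 37.5 in DU-145, compared with 82 and 88 around the peaks of all 4 lines and 62 and 57 around those of OVCAR-3 alone. The OVCAR-3 list itself had a median of 79 peaks there, against 169 around the peaks of OVCAR-3 alone, 135 around all OVCAR-3 peaks and 71 around the peaks of all 4 lines. The rule keeps only sites with no COLO-205 or DU-145 peak, which by itself lowers the counts of those lists. DU-145 had at most 10 peaks in this window for 17.7% of the shared ovarian peaks, for 5.76% of the peaks of all 4 lines, for 12.6% of those of OVCAR-3 alone and for 33.9% of those shared with SKOV-3 and COLO-205 but not DU-145. Whether thin regional lists, rather than the single sites, set the absence from COLO-205 and DU-145 was not tested. Leaving out the 3 places left 704 peaks, with a promoter share of 16.1% and all 5 Mullerian genes.

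The sequence under the summits was close to that of the list as a whole. The median GC content of the 200-base windows was 57.5%, against 56.5% over all OVCAR-3 peaks, and 71.5% at the peaks of all 4 lines. The AP-1 letters were in 23 windows (2.81%, exact 95% interval 1.79 to 4.19), against 3.68% of all OVCAR-3 windows. When whole peaks were searched they were in 12.1%, against 9.20% of all OVCAR-3 peaks, which were narrower, with a median of 316 bp against 387 bp. TEAD letters were in 76 windows (9.29%, against 7.88%), forkhead letters in 12 (1.47%, against 0.886%), TFAP2 letters in 131 (16.0%, against 14.1%) and SP and KLF letters (GGGCGG) in 154 (18.8%, against 19.3%). GATA letters were in 4 windows (0.489%, against 0.829%). The interval of each of these window shares holds the share of the whole list.

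The ZEB E-box was in 233 windows (28.5%, 25.4 to 31.7), against 32.0% of all and 35.8% of those found in OVCAR-3 alone. These letters also occur in Alu repeats. A stretch of the Alu consensus (GGGATTACA), added after the data were seen, was in 13.3% of the windows, 16.9% of all OVCAR-3 windows and 20.9% of those of OVCAR-3 alone. In windows shared with COLO-205 only and with DU-145 only, the Alu stretch was in 13% and 16.0% and the ZEB E-box in 32.3% and 30.2%. Over all windows, promoters included, lower shares than in OVCAR-3 alone were thus not particular to the shared ovarian peaks. Among distal windows the ZEB E-box share was 31.1%, against 35.7% of all distal OVCAR-3 windows. It was 36.7% for OVCAR-3 alone, 33.9% with COLO-205 only and 35.4% with DU-145 only. The distal Alu shares, in the same order, were 16.3%, 20.7%, 21.9%, 14.5% and 21.4%. Distal windows shared with DU-145 only were thus close to those of OVCAR-3 alone.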

How the data were processed

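H3K27ac was profiled by ChIP-seq in 4 cell lines (1 library each, no replicates). The authors mapped reads to hg19 with Bowtie2 2.1.0 and called narrow peaks per library with MACS2 2.1.0.20150603 at a q-value below 0.001. For each peak the authors deposited a fold enrichment ratio, −log10 values of p and q, and a score made from the latter, each relative to the same library. A merging step for peaks within 350 bp is described, but the deposited lists still hold such neighbors and were used unmerged.

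Peaks of different lists were matched where they share 1 bp or more. Summit pileup and background were solved from fold and −log10 p (tolerance 0.001), and tags per library from the lowest background and 2.7e+09 positions. Genes are protein-coding starts of GENCODE lifted to GRCh37, and promoters lie within 1 kb. Motif letters were searched on both strands in 200-bp summit windows. Shares have exact Clopper-Pearson 95% intervals. No group had replicates, so no test was made. Overlap, pileup and motif code was tested on simulated data. Python 3.11.15, numpy 2.4.6, pandas 2.3.3, scipy 1.17.1, pysam 0.24.0, matplotlib 3.10.9 and samtools 1.23.1 were used.

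The members and lists were chosen with earlier results of these data known. Named are the 12 peaks with the highest lower percentile of −log10 q, the 12 genes nearest to the most peaks, list genes nearest to any, the 5 densest loci and the peaks nearest to the limits of the rule. Sequences avoid chromosome 8 and untranslated regions, and some items that this rule names are not reported here. Alternatives were stricter overlap, distance and q, equal list sizes, merging, and leaving out chromosomes 3 and 19. Leaving out the stretches of chromosomes 12 and 4 and chromosome X was added after the data were seen. The authors' merged peaks, RNA-seq and mutation calls were not analysed here.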

Additional observations from a re-analysis of the deposited data

How the results depend on the processing

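Of the 54 values recomputed under an alternative, 40 stayed within 1.5 times a count or within the 95% interval of a share or median, and 14 moved. With a −log10 q of at least 10 in every list, there were 507 peaks, 258 of them among the 818. Their promoter share was 39.1%, their median fold 8.11 in OVCAR-3 and 6.52 in SKOV-3, and their AP-1 share 1.38%. With 14001 peaks in every list there were 1073 peaks, 248 of them among the 818, nearest to 884 genes, with a promoter share of 60.0% and median folds of 10.01 and 5.25. Both settings also remove weak COLO-205 and DU-145 peaks and so admit peaks that the rule leaves out. The promoter share of the whole OVCAR-3 list was not recomputed at either setting. An overlap of at least 50% of the OVCAR-3 peak gave median folds of 5.64 and 6.04. A promoter distance of 5 kb gave 28.6%, whole peaks gave an AP-1 share of 12.1%, and leaving out the stretches of chromosomes 12 and 4 and chromosome X, added after the data were seen, a promoter share of 16.1%. Genes of the Mullerian list with a peak numbered between 3 and 5 in every setting, but their peaks fell from 14 to 8 with the 50% overlap (without MEIS1 and LHX1), 7 with the stricter q (without ESR1), 9 with equal lists (MUC16 and PAX8 in place of ESR1 and LHX1) and 7 without chromosomes 3 and 19 (without MECOM). SOX17 was kept in each of these. Taking the highest overlapping SKOV-3 peak as the partner, also added after the data were seen, gave a median SKOV-3 fold of 5.79. No paired analysis was possible because each line has 1 library, and no replicate could be left out. The 14001 peaks of SKOV-3 limit the set, and a peak missing from a list is not shown to lack acetylation.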
